A study of Papio anubis and Macaca mulatta with 6 samples.

Results

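The GDNF family of growth factors and receptors was followed through the cell types of the immature testis in 2 olive baboons (Papio anubis) and 2 rhesus macaques (Macaca mulatta). The 9 genes were taken by symbol: the ligands GDNF, NRTN (neurturin), ARTN (artemin) and PSPN (persephin), the co-receptors GFRA1 to GFRA4, and the receptor RET. All 9 were present among the 34178 genes listed for the baboon and the 21356 listed for the rhesus macaque. Each ligand binds a GFRA co-receptor held in the cell membrane by a lipid anchor, and the pair then engages RET, a receptor tyrosine kinase that carries the signal into the cell. The classical pairings are GDNF with GFRA1, NRTN with GFRA2, ARTN with GFRA3 and PSPN with GFRA4. In the rodent testis, GDNF from somatic cells of the seminiferous cord acts on GFRA1 and RET of undifferentiated spermatogonia and maintains the spermatogonial stem cells.

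Testes of immature animals, euthanized for a purpose outside the study, were collected at necropsy, and no treatment of the animals is stated. The 3′ transcripts of dissociated, unselected testis cells were counted in droplets as unique molecular identifiers (UMIs, each standing for 1 captured transcript). A short collagenase step with a wash, meant to take interstitial cells away, came before trypsin. The baboons were described as 15 and 20 months old and the macaques as newborn and 26 months old in the deposited description, whereas the study's own text gives these ages to the other species. No animal could therefore be given an age here, and age and animal cannot be told apart. The libraries baboon 1A and 1B came from 1 animal and rhesus 2A and 2B from another, so that every comparison rests on 2 animals per species and the p-values measure the spread between those animals. The test moderates that spread over all genes. Baboon 2 was made with version 3 of the droplet chemistry and the other 5 libraries with version 2. In every baboon comparison the spread therefore holds chemistry as well as animal.

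The 6 libraries held between 16875294 and 49803025 UMIs, and between 5557 and 11174 cells were called in each, with a median of 1445 to 2742 UMIs per cell. Same-chemistry libraries shared 51 to 145 cell barcodes, against 55.4 to 145 expected by chance, and the one pair well above its expected number was rhesus 2A and 2B of 1 animal (109 against 79.3). Classes were named from marker genes and are written as "like" classes: in the baboon, 247 germ-like, 16178 Sertoli-like and 4857 stroma-like cells of 23050, and in the rhesus macaque 681, 7522 and 12812 of 26481. The germ cell marker DDX4 (an RNA helicase of germ cells) stood at 136 and 185 CPM (UMIs per 1000000 UMIs) in germ-like cells of baboons 1 and 2 and at 27.6 and 45.6 CPM in those of macaques 1 and 2, against 1.8 CPM at most in Sertoli-like cells. AMH, the anti-Müllerian hormone of immature Sertoli cells, stood at 6501 to 7962 CPM in Sertoli-like cells but also at 131 to 1437 CPM in germ-like cells. Of the germ-like cells of macaque 1, 319 of 607 formed a shallow cluster with a median of 875 UMIs, and the germ-like against Sertoli-like differences of the family genes are also given without them; the other germ-like values of macaque 1 include them.

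GFRA2, GFRA3 and RET were called higher in germ-like than in Sertoli-like cells of both species. In the baboon, GFRA1 was also higher there and GFRA4 was lower, so that 5 of the 9 genes passed the test, in a comparison where 38.7% of all 16497 genes tested did so (20.2% higher, 18.5% lower). In the macaque, 5 of the 9 genes had enough counts to be tested, and GDNF, GFRA2, GFRA3 and RET were higher in germ-like cells, against 34.8% of all 11401 genes tested (18.9% higher, 15.9% lower). GFRA1, GFRA2 and RET in the baboon, and GDNF, GFRA2 and RET in the macaque, passed the filter on low counts through their germ-like levels only. Their Sertoli-like levels were below it, so a test of these genes was possible only because germ-like cells were high. GFRA4, with 2628 UMIs in the Sertoli-like cells of the baboons, was represented by 3 UMIs in all 26481 macaque cells. Whether the annotated 3′ end of GFRA4 in Mmul_10 is complete enough for 3′ counting was not tested, and levels of the species are given side by side without a test between them, since the 2 annotations were counted separately. A called gene is one with an adjusted p under 0.05 in edgeR's quasi-likelihood test on summed UMIs per animal, with Benjamini-Hochberg adjustment over all genes tested.

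**Figure D1:**
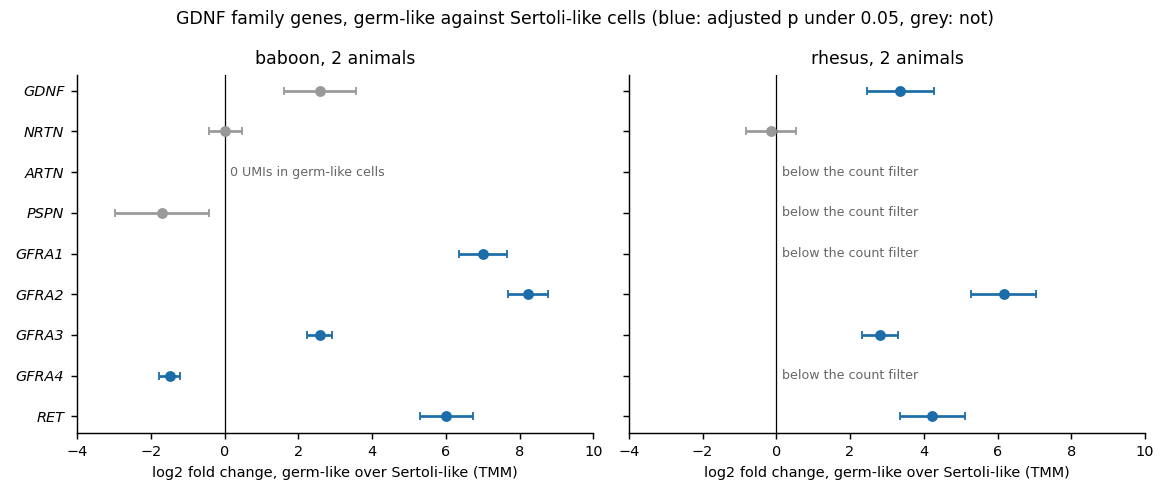
Log2 fold change of each family gene in germ-like over Sertoli-like cells, with bars of 1 standard error, in baboon (left) and rhesus macaque (right), 2 animals each; blue points passed an adjusted p of 0.05 and grey points did not. In both species GFRA2 lies farthest to the right, at 8.22 and 6.16, and NRTN lies at the zero line after edgeR's composition scaling (TMM).

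GDNF, the ligand with the best known role in spermatogonial stem cell renewal, was scarce in every class. Baboon germ-like cells held 7 UMIs (6.95 CPM) in animal 1 and 21 UMIs (15.9 CPM) in animal 2, and Sertoli-like cells held 63 UMIs (2.12 CPM) and 12 UMIs (0.384 CPM). The germ-like level was above the Sertoli-like level in both baboons, by 3.28-fold (95% counting interval 1.27 to 7.17) in one and by 41.5-fold (19.5 to 92.4) in the other. Near-empty barcodes, which carry free RNA, held 7 GDNF UMIs in library baboon 1A and 0 in baboon 1B and baboon 2. The baboon 1A level was 4.24 CPM (1.70 to 8.73), an interval that holds the germ-like level of baboon 1. The fitted log2 difference of GDNF was 2.58 ± 0.97 (SE), with an adjusted p of 0.0792, and with the animal as a block it was 2.96 with an adjusted p of 0.00115. DESeq2 also called it (adjusted p 0.0237), and so did edgeR on library totals without the TMM scaling (log2 3.22, adjusted p 0.0364). In the macaque, GDNF counted 4 and 5 UMIs in germ-like cells (2.62 and 9.11 CPM) and 3 UMIs in Sertoli-like cells of each animal (0.38 and 0.418 CPM). That difference was called, at a log2 fold change of 3.36 ± 0.91 and an adjusted p of 0.0227, although it rests on 9 germ-like UMIs. GDNF also passed the count filter there through its germ-like level only. The shallow germ-like cluster of macaque 1 held 0 GDNF UMIs and the deeper one 4, and without the shallow cluster the log2 difference was 3.55 (adjusted p 0.0122), whereas GDNF was below the count filter when either library of macaque 2 was left out. Against all other macaque cells together the log2 difference of GDNF was 3.92 ± 0.97 (adjusted p 0.0215), whereas without library rhesus 2B it was 2.79 (adjusted p 0.096), and without rhesus 2A it was below the filter. In this comparison too, GDNF passed the count filter through its germ-like level only. Baboon stroma-like cells held 0 and 3 GDNF UMIs, and the Leydig-like cells of the macaques 0 and 5 (6.21 CPM).

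NRTN, the ligand classically paired with GFRA2, was found in germ-like and in Sertoli-like cells, and the Sertoli-like level differed between animals. Baboon germ-like cells held 28.8 and 28.1 CPM in animals 1 and 2 (29 and 37 UMIs), and Sertoli-like cells held 11.1 and 27.2 CPM (329 and 849 UMIs). Macaque germ-like cells held 20.3 and 14.6 CPM (31 and 8 UMIs), and Sertoli-like cells held 5.70 and 33.0 CPM (45 and 237 UMIs). Both libraries of macaque 2 were high, at 37.0 and 28.9 CPM, and both libraries of baboon 1 were low, at 10.3 and 12.4 CPM. Baboon 2 is also the only version 3 library, so animal and chemistry cannot be told apart there. Within macaque 1 the germ-like level was 3.57-fold the Sertoli-like level (95% counting interval 2.18 to 5.77), and within macaque 2 it was 0.441-fold (0.188 to 0.884). The germ-like and Sertoli-like levels of NRTN overlapped in the macaque. In the baboon both germ-like levels in CPM lay above both Sertoli-like levels, by little in baboon 2 (28.1 against 27.2 CPM). After TMM scaling, the log2 differences were 0.02 ± 0.45 (adjusted p 0.979) in the baboon and -0.15 ± 0.68 (adjusted p 0.882) in the macaque. Leaving out TMM moved the median log2 difference of all genes by 0.589 in the baboon. The shallow germ-like cluster of macaque 1 held 0 NRTN UMIs (up to 8.54 CPM by the exact Poisson interval) and the deeper one 31 UMIs (28.4 CPM), and without the shallow cluster the macaque difference was 0.12 (adjusted p 0.906). Leydig-like cells of the macaques held 4 and 12 NRTN UMIs (3.24 and 14.9 CPM). Stroma-like cells were lower in both species, at 3.22 and 2.78 CPM in the baboons and 0.632 and 1.67 CPM in the macaques. NRTN was lower in baboon stroma-like cells than in all other cells (log2 fold change -2.46 ± 0.53, adjusted p 0.0349), where 18% of the 16096 genes tested were called; this call was lost when cells were called by a UMI cutoff alone (adjusted p 0.136) or classed cell by cell (adjusted p 0.0883).

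Against all other cells, the Sertoli-like excess of NRTN was 1.13 ± 0.49 on the log2 scale in the baboon (adjusted p 0.203) and 2.19 ± 0.71 in the macaque (adjusted p 0.108). With the animal as a block these NRTN differences were 1.08 (adjusted p 0.00335) and 1.94 (adjusted p 0.0311), and the difference in macaque stroma-like cells was -3.26 (adjusted p 0.00179) in place of -3.20 ± 0.75 (adjusted p 0.107). DESeq2 called NRTN in both macaque classes (adjusted p 0.0185 in Sertoli-like and 0.00233 in stroma-like cells). The block raised the number of all genes called from 3210 to 8417 in baboon Sertoli-like cells and from 1431 to 3821 in macaque Sertoli-like cells. In baboon endothelial-like cells NRTN stood at 1 and 5 UMIs and its log2 difference of -1.99 ± 0.71 (adjusted p 0.11) became -2.04 with an adjusted p of 0.00159 under the block.

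ARTN and PSPN, the ligands classically paired with GFRA3 and GFRA4, were counted rarely. ARTN held 32 and 74 UMIs in Sertoli-like cells of the baboons (1.08 and 2.37 CPM), 1 and 11 UMIs in stroma-like cells, and 2 and 3 UMIs in the 70 peritubular myoid-like cells (20.0 and 34.5 CPM). No ARTN UMI was found in the germ-like cells of either baboon. A floor of 3 UMIs over both animals lies 1.35-fold below the pooled Sertoli-like level, without the counting error of that level. In baboon 1 alone the same floor lies above the Sertoli-like level, so no bound holds there. The adjusted p of edgeR was 0.0594, and 0.0206 with the animal as a block. ARTN passed the count filter in this comparison through its Sertoli-like levels only. The myoid-like excess of ARTN was 4.07 ± 0.90 on the log2 scale with an adjusted p of 0.0752, in a comparison where 2.74% of 15099 genes were called, and it rests on 5 UMIs. None of the 9 genes was called there by edgeR, where the unadjusted p of ARTN was 0.00274, whereas DESeq2 called ARTN with an adjusted p of 6.5e-05 and edgeR did so without library baboon 1A (adjusted p 0.00378). In the macaque, 1 ARTN UMI was found in all cells. PSPN held 31 and 27 UMIs in baboon Sertoli-like cells (1.04 and 0.864 CPM) and 6 and 10 UMIs in those of the macaques (0.76 and 1.39 CPM). Germ-like cells held 1 and 0 PSPN UMIs in the baboons and none in the macaques, and the baboon log2 difference of -1.69 ± 1.28 did not pass (adjusted p 0.337).

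**Figure D2:**
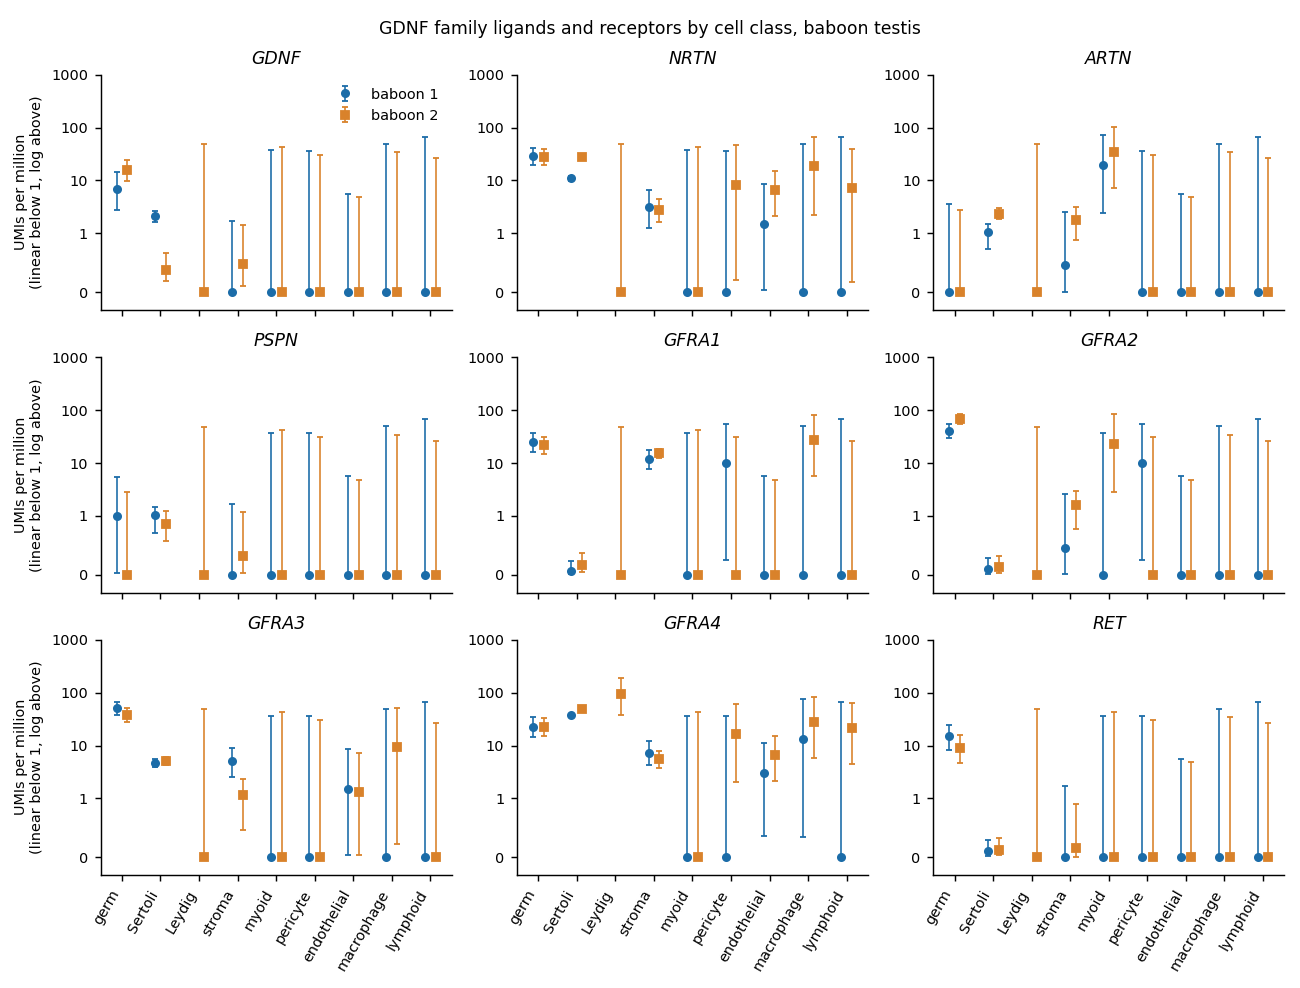
Level of each family gene in CPM (linear below 1, log scale above) in each cell class of baboon 1 (circles) and baboon 2 (squares), with exact 95% Poisson intervals that cover counting error only. GFRA1, GFRA2, GFRA3 and RET are high in germ-like cells, GFRA1 is also seen in stroma-like cells at 11.9 and 15.3, and GFRA4 is seen in Sertoli-like cells at 36.9 and 48.9.

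GFRA1, the co-receptor of GDNF and a widely used marker of undifferentiated spermatogonia, was found in germ-like and stroma-like cells and was almost missing from Sertoli-like cells. In the baboon, germ-like cells held 25 UMIs (24.8 CPM) in animal 1 and 29 UMIs (22.0 CPM) in animal 2, stroma-like cells held 26 UMIs (11.9 CPM) and 94 UMIs (15.3 CPM), and Sertoli-like cells held 2 and 5 UMIs (0.0672 and 0.160 CPM). All germ-like and stroma-like levels lay above all Sertoli-like levels. GFRA1 was higher in germ-like than in Sertoli-like cells by 7.01 ± 0.64 on the log2 scale (adjusted p 0.00135), which in pooled UMIs was a 202-fold ratio (95% counting interval 91.8 to 527), and the stroma-like to Sertoli-like ratio was 126 (59.3 to 320). In the germ-like against Sertoli-like test, GFRA1 passed the count filter through its germ-like levels only. Germ-like cells exceeded stroma-like cells 1.61-fold (1.14 to 2.23), by counting error only. Stroma-like cells carried more GFRA1 than all other cells (log2 fold change 3.82 ± 0.42, adjusted p 0.0074), and so did germ-like cells (3.19 ± 0.61, adjusted p 0.00906, where 34.7% of 17306 genes were called). Marker genes of the stroma summed to 97.3 and 252 CPM in the germ-like cells of the baboons, and their part in the GFRA1 level there was not tested.

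Macaque GFRA1 followed the same order at lower counts. Germ-like cells held 5 and 4 UMIs (3.28 and 7.29 CPM), none of them in the shallow cluster of macaque 1, stroma-like cells held 17 and 46 UMIs (2.69 and 3.84 CPM), and Sertoli-like cells held 1 and 3 UMIs (0.127 and 0.418 CPM). The germ-like and stroma-like ranges overlapped, with a ratio of 1.26 (95% counting interval 0.551 to 2.55), while both lay above the Sertoli-like range. In pooled UMIs the germ-like to Sertoli-like ratio of GFRA1 was 16.4 (4.57 to 72.7) and the stroma-like to Sertoli-like ratio 13.0 (4.83 to 49.1). GFRA1 was too sparse for the test of germ-like against Sertoli-like cells, and against all other cells its germ-like difference was 1.08 ± 0.78 (adjusted p 0.333, where 28.2% of 13167 genes were called). Sertoli-like cells were lower in GFRA1 than all other cells (-3.38 ± 0.75, adjusted p 0.0438, where 11.5% of 12459 genes were called), a call that was lost with cell by cell classes (adjusted p 0.0794), with a doubled clustering resolution (0.057) and without library rhesus 2B (0.0534). In that comparison GFRA1 passed the count filter through the level of the other cells only, so a test was possible only because those were high. The stroma-like difference was 1.58 ± 0.56 with an unadjusted p of 0.0324 and an adjusted p of 0.196. No gene of the 12824 tested was called by edgeR in macaque stroma-like cells (0%), although 2662 had an unadjusted p under 0.05 and DESeq2 called 1246. The other cells in that comparison included unnamed clusters that scored best on the stroma list, among them 1141 cells of macaque 1 and 1110 of macaque 2. Stroma was thus set partly against cells with stroma markers.

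GFRA2, the co-receptor classically paired with NRTN, had the largest log2 difference of the family genes tested between germ-like and Sertoli-like cells in both species. Baboon germ-like cells held 41 UMIs (40.7 CPM) in animal 1 and 89 UMIs (67.5 CPM) in animal 2, and the Sertoli-like cells, far more numerous, held 3 and 4 UMIs (0.101 and 0.128 CPM). Macaque germ-like cells held 64 UMIs (42.0 CPM) and 8 UMIs (14.6 CPM), and Sertoli-like cells held 4 and 1 UMIs (0.507 and 0.139 CPM). The groups did not overlap in either species. In both species GFRA2 passed the count filter through its germ-like levels only. GFRA2 was higher in germ-like than in Sertoli-like cells by 8.22 ± 0.54 in the baboon (adjusted p 0.000529) and by 6.16 ± 0.87 in the macaque (adjusted p 0.00195) on the log2 scale. One germ-like cell of baboon 2 held 13 of the 89 UMIs. In macaque 1, GFRA2 stood at 41.7 CPM in the shallow germ-like cluster and at 42.1 CPM in the deeper one, and without the shallow cluster the log2 difference was 6.10 (adjusted p 0.00103).

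GFRA3, the co-receptor classically paired with ARTN, was high in germ-like cells of every animal. ARTN itself was nearly uncounted in the macaque, and in the baboon it was counted in Sertoli-like but not in germ-like cells. Germ-like levels were 50.6 and 37.9 CPM in the baboons (51 and 50 UMIs) and 38.7 and 29.2 CPM in the macaques (59 and 16 UMIs), and Sertoli-like levels were 4.67 and 5.09 CPM (139 and 159 UMIs) and 2.53 and 6.41 CPM (20 and 46 UMIs). The lowest germ-like level of GFRA3 was above the highest Sertoli-like level in each species. GFRA3 was higher in germ-like cells by 2.59 ± 0.34 in the baboon (adjusted p 0.00291) and by 2.81 ± 0.49 in the macaque (adjusted p 0.00384) on the log2 scale. In macaque 1, GFRA3 stood at 18.5 CPM (8 UMIs) in the shallow germ-like cluster and at 46.7 CPM (51 UMIs) in the deeper one, and without the shallow cluster the difference was 2.94 (adjusted p 0.00209). Macrophage-like cells of the macaques held 2 and 8 UMIs (6.66 and 38.5 CPM), and their GFRA3 difference from all other cells, 2.83 ± 0.90, had an adjusted p of 0.198, and 0.0381 with the animal as a block, in a comparison where 3.05% of 12129 genes were called. Stroma-like cells held 5.06 and 1.14 CPM of GFRA3 in the baboons and 1.74 and 0.418 CPM in the macaques, and the block brought their differences from all other cells to an adjusted p of 0.0194 in the baboon (0.455 without it) and 0.0214 in the macaque (0.213 without it).

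RET, the signaling receptor shared by all 4 ligands, was counted mainly in germ-like cells. Baboon germ-like cells held 15 UMIs (14.9 CPM) in animal 1 and 12 UMIs (9.10 CPM) in animal 2, and Sertoli-like cells held 3 and 4 UMIs (0.101 and 0.128 CPM). Macaque germ-like cells held 48 UMIs (31.5 CPM) and 4 UMIs (7.29 CPM), and Sertoli-like cells held 10 and 4 UMIs (1.27 and 0.557 CPM). Macaque 1 was thus the high animal among germ-like cells, and the germ-like and Sertoli-like ranges did not overlap in either species. The count filter was passed by RET through its germ-like levels only, in both species. RET was higher in germ-like cells by 6.02 ± 0.71 in the baboon (adjusted p 0.00237) and by 4.23 ± 0.88 in the macaque (adjusted p 0.00787) on the log2 scale. In pooled UMIs these were ratios of 101 (95% counting interval 43.0 to 275) and 27.0 (14.7 to 52.8). Stroma-like cells held 0 and 1 RET UMIs in the baboons and 2 and 1 in the macaques. RET stood at 27.8 CPM (12 UMIs) in the shallow germ-like cluster of macaque 1 and at 33.0 CPM (36 UMIs) in the deeper one, and without the shallow cluster the log2 difference was 4.22 (adjusted p 0.00568).

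RET and GFRA3 were called higher in germ-like cells of both species, and their start regions are shown because they differ in base composition. Each is the 250 bases before the start of the gene in RefSeq's annotation of the macaque build Mmul_10, read 5′ to 3′ on the gene's strand. Capitals mark the GC box, searched as GGGCGG and CCGCCC so that both strands are covered. The RET window lies at chr9:43802068-43802317 on the plus strand, has a GC content of 80.0% and holds 4 GC boxes. The GFRA3 window lies at chr6:135677754-135678003 on the minus strand, has a GC content of 44.0% and holds 0.
RET: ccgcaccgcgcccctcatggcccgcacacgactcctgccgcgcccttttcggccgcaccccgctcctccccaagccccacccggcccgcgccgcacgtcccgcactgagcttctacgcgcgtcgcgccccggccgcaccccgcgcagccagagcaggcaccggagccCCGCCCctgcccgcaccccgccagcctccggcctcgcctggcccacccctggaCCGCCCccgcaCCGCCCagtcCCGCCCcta
GFRA3: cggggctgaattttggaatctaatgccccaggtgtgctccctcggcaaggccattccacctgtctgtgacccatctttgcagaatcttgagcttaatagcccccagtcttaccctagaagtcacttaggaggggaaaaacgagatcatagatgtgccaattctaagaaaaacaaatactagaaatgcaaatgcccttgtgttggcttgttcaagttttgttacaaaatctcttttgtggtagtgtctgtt
GC boxes were found in 9131 of 20954 start regions of the same length (43.6%), and the median GC content was 57.2%. Among the other family genes, GFRA2 and NRTN held 4 each, ARTN and PSPN 1 each, and GDNF, GFRA1 and GFRA4 none. A match describes the letters of the window only.

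The macaque genes lie on chromosome 9 (RET at 43802318-43855382 on the plus strand and GFRA1 at 116549359-116771215 on the minus strand), chromosome 6 (GDNF at 37664534-37692642 and GFRA3 at 135654789-135677753, both minus), chromosome 19 (NRTN at 5724657-5748269, plus, and PSPN at 6308421-6310610, minus), chromosome 1 (ARTN at 180514086-180519738, minus), chromosome 8 (GFRA2 at 21861512-21960755, minus) and chromosome 10 (GFRA4 at 62822905-62825517, plus), in Mmul_10. In the baboon build Panubis1.0, RET lies on chromosome 11 at 86851114-86881883, GFRA1 on chromosome 11 at 16965323-17189770 and GFRA4 on chromosome 16 at 54824193-54826808. In RefSeq's annotations, GDNF and GFRA3 overlap uncharacterized loci in both species and macaque PSPN overlaps ALKBH7, with strand not considered. The macaque counts carry Ensembl gene identifiers, so these RefSeq loci were not the ones counted there. The effect of overlaps on the counts was not tested.

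GFRA4, the co-receptor classically paired with PSPN, was mainly a Sertoli-like transcript in the baboon. Sertoli-like cells held 1099 UMIs (36.9 CPM) in baboon 1 and 1529 UMIs (48.9 CPM) in baboon 2, with 35.5 and 39.3 CPM in the libraries of baboon 1. Levels ran from 25.3 to 63.3 CPM among the Sertoli-like clusters. Germ-like cells held 23 and 30 UMIs (22.8 and 22.7 CPM), stroma-like cells 16 and 34 UMIs (7.35 and 5.55 CPM), endothelial-like cells 2 and 5 UMIs (3.04 and 6.52 CPM), and the myoid-like cells none (adjusted p 0.112 against all other cells, and 0.0246 with the animal as a block). The Sertoli-like levels lay above the germ-like levels, and these above the stroma-like and endothelial-like levels, which did not differ beyond their spread. The 16 Leydig-like cells of baboon 2 held 7 UMIs (92.3 CPM, exact 95% Poisson interval 37.1 to 190).

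Against all other cells, GFRA4 was higher in Sertoli-like cells by 1.47 ± 0.29 on the log2 scale (adjusted p 0.0298, where 18.5% of 17381 genes were called in either direction and 3.12% as higher), and lower in stroma-like cells (-2.51 ± 0.32, adjusted p 0.00961) and in endothelial-like cells (-2.93 ± 0.45, adjusted p 0.00487, where 15.1% of 15759 genes were called). The Sertoli-like call was lost with a UMI cutoff alone (log2 0.92, adjusted p 0.227) and with cell by cell classes (0.97, adjusted p 0.145). The other cells included an unnamed cluster of 377 cells of baboon 2 that held 156 GFRA4 UMIs (46.5 CPM) and in which 83% of the cells were marked as doublets. Between germ-like and Sertoli-like cells the log2 difference of GFRA4 was -1.49 ± 0.29 (adjusted p 0.00988), and without TMM (edgeR's composition scaling) it was -0.90 (adjusted p 0.0667). Leaving out TMM moved the median log2 difference of all genes by 0.589 and turned the split of calls from 3335 higher and 3044 lower into 4570 and 1549. In pooled UMIs the GFRA4 ratio of germ-like to Sertoli-like cells was 0.618 (95% counting interval 0.39 to 0.933) in baboon 1 and 0.465 (0.312 to 0.666) in baboon 2.

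GFRA4 was found in 12.7% of the 16178 Sertoli-like cells (exact 95% binomial interval 12.2 to 13.2) at a median of 2227 UMIs, in 1.01% of stroma-like cells and in 17.0% of germ-like cells at a median of 7688 UMIs. When each cell was thinned to 1000 UMIs, which left 1566 Sertoli-like cells out, the share was 4.04% (3.72 to 4.37; 590 of 14612) in Sertoli-like cells, 0.543% (0.341 to 0.821; 22 of 4050) in stroma-like cells and 3.17% (1.28 to 6.42; 7 of 221) in germ-like cells. The germ-like share thus stood above the Sertoli-like share before thinning and inside an interval that holds it after thinning. Near-empty barcodes, which carry free RNA, held GFRA4 at 49.6, 22.2 and 54.1 CPM in libraries 1A, 1B and baboon 2, about the levels of Sertoli-like cells, and AMH at 5301, 4148 and 9873 CPM.

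GFRA4 and NRTN were also counted per AMH UMI. AMH is on the marker list that named the Sertoli-like class, so its low level in other classes was set in part by the naming. Any gene counted per AMH UMI stands higher in a class with little AMH, and these ratios describe the classes only. Free RNA held 9.05 and 5.48 GFRA4 UMIs per 1000 AMH UMIs in baboons 1 and 2, Sertoli-like cells 5.46 and 6.15, germ-like cells 60.4 and 15.8, stroma-like cells 11.7 and 11.8, and endothelial-like cells 9.35 and 10.0. The germ-like ratio was 11.1 times the Sertoli-like one in baboon 1 (95% counting interval 6.98 to 16.7) and 2.58 times in baboon 2 (1.73 to 3.69). Set against free RNA of the same animal, the GFRA4 ratio was 6.67 times (4.02 to 10.7) and 2.89 times (1.51 to 5.77) in germ-like cells, 1.29 times (0.708 to 2.22) and 2.16 times (1.15 to 4.27) in stroma-like cells, and 1.03 times (0.123 to 3.85) and 1.82 times (0.518 to 5.28) in endothelial-like cells. The germ-like intervals lay above equality with free RNA in both baboons, the stroma-like interval only in baboon 2 and the endothelial-like interval in neither. Free RNA itself stood at 1.66 times the Sertoli-like GFRA4 ratio in baboon 1 (1.32 to 2.07) and at 0.892 times in baboon 2 (0.498 to 1.48). All these intervals cover counting error only, and the part of free RNA in the GFRA4 counts of any class was not tested. For NRTN, the germ-like ratio was 46.6 times (30.7 to 68.2) and 5.72 times (4.0 to 7.95) the Sertoli-like one in the baboons, and 30.2 times (18.5 to 48.8) and 25.2 times (10.7 to 50.4) in the macaques. Free RNA held 2.63 and 3.66 NRTN UMIs per 1000 AMH UMIs in the baboons and 0.438 and 4.17 in the macaques, and the germ-like ratio was 28.9 times (16.4 to 51.5) and 5.34 times (2.60 to 12.04) that of free RNA in the baboons. Markers of Sertoli cells summed to 676 and 1750 CPM in baboon germ-like cells, with 11 and 12 of 14 markers counted, against 8385 and 9243 CPM in Sertoli-like cells. In the macaques, 13 of 14 were counted in germ-like cells of each animal, at 1047 and 353 CPM in sum against 7875 and 10710 CPM, and the marker CST9 had no UMI in either class of any animal.

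**Figure D3:**
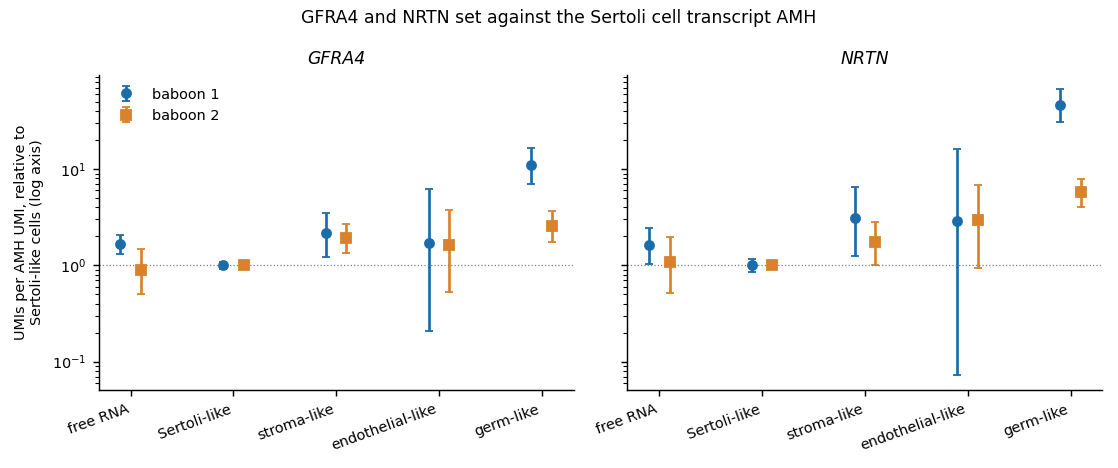
UMIs of GFRA4 (left) and NRTN (right) per AMH UMI, in free RNA and in 4 cell classes, relative to Sertoli-like cells of the same animal (log axis, dotted line at equality), in baboon 1 (circles) and baboon 2 (squares), with 95% counting intervals. Germ-like cells lie above the line for both genes in both animals, at 11.1 and 2.58 for GFRA4 and at 46.6 and 5.72 for NRTN, and free RNA lies at 1.66 and 0.892 for GFRA4 and at 1.61 and 1.07 for NRTN. AMH is a marker that named the Sertoli-like class, so ratios in the other classes are raised in part by the naming.

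In the macaque, GFRA4 counted 1 UMI in Sertoli-like cells of each animal, 1 in stroma-like cells and 0 in germ-like cells. At 2072864 germ-like UMIs, 0 allows a level of up to 1.45 CPM (3 UMIs), by counting error only. No test of GFRA4 was possible in the macaque at these counts.

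**Figure D4:**
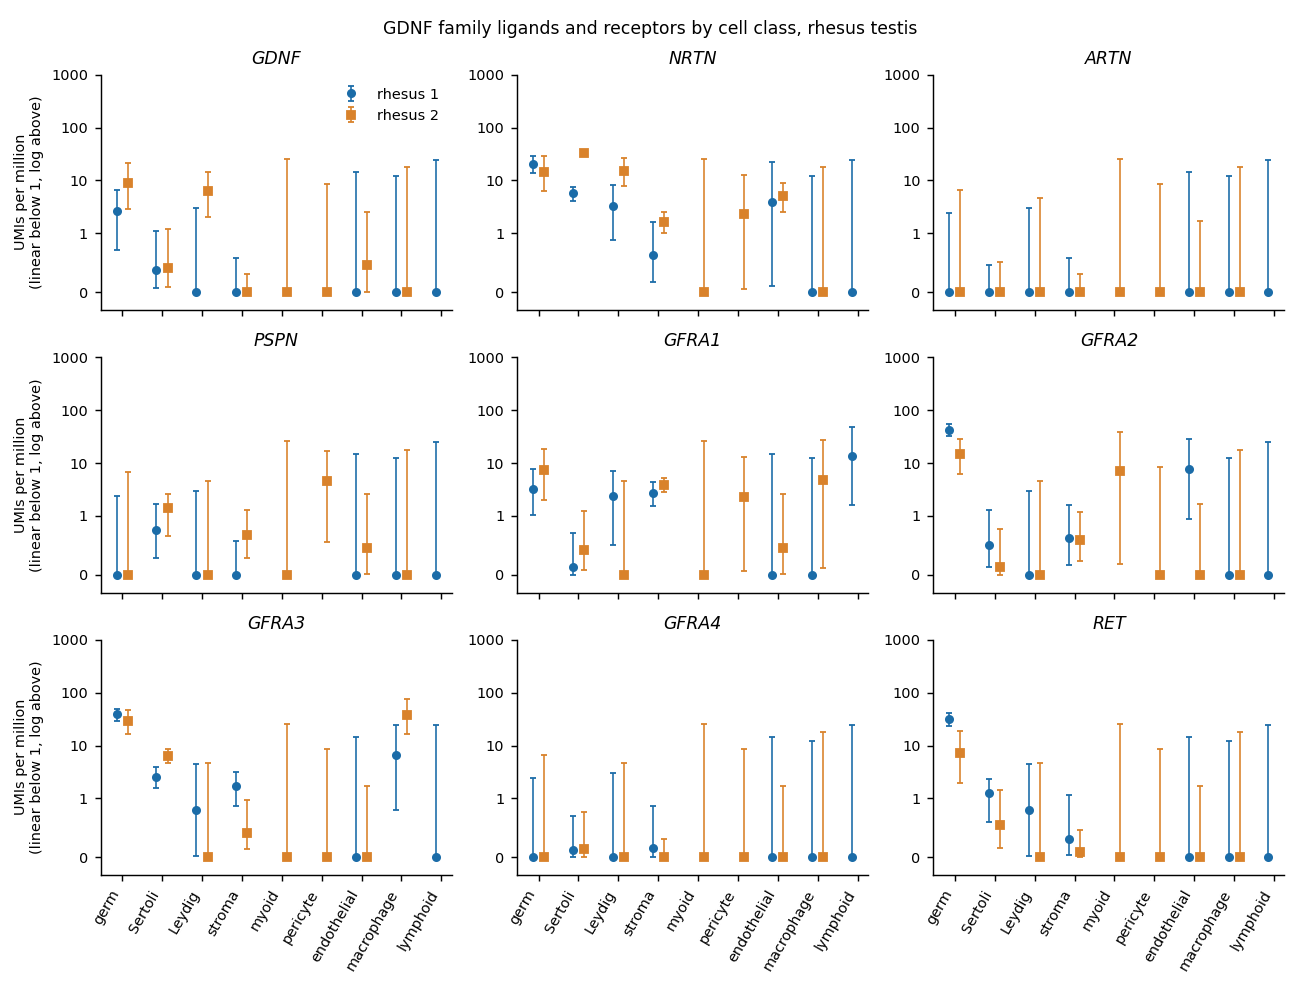
Level of each family gene in CPM (linear below 1, log scale above) in each cell class of macaque 1 (circles) and macaque 2 (squares), with exact 95% Poisson intervals that cover counting error only. RET is highest in germ-like cells at 31.5 and 7.29, NRTN in Sertoli-like cells stands at 5.70 and 33.0, and GFRA4 is at or near 0 in every class.

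Few single germ-like cells held UMIs of RET together with GFRA1, GFRA2 or GFRA4, and GFRA3 was not paired with RET here. Each gene alone was counted in a minority of cells, so the joint counts do not show whether the genes are kept apart. Of the 247 baboon germ-like cells, 9 held both GFRA1 and RET, 30 GFRA1 without RET, 16 RET without GFRA1 and 192 neither, and the cells with neither were shallower (median 5744 UMIs) than those with GFRA1 (13680) or RET (15382). GFRA2 and RET were both counted in 9 cells, GFRA4 and RET in 7, and GDNF and RET in 1. Of the 681 macaque germ-like cells, none held both GFRA1 and RET, with 9 and 47 cells holding one of them, and 16 held both GFRA2 and RET. At this depth a gene that is not counted in a cell may still be expressed there. RET was found in 10.1% of baboon and 6.90% of macaque germ-like cells, and after thinning to 1000 UMIs in 4 of 221 (1.81%) and 10 of 425 (2.35%, 1.13 to 4.28), against 0.108% of thinned macaque Sertoli-like cells.

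Germ-like cells were also divided by 2 lists of germ cell state genes, one led by PIWIL4 (a piRNA pathway protein) and the other by NANOS3 (an RNA-binding protein of early germ cells), whichever had more UMIs in a cell. UTF1, a gene of the PIWIL4 list, was not found among the macaque symbols. The study's own text reports FGFR3, PIWIL4 and TSPAN33 as absent from rhesus spermatogonia. Here, however, PIWIL4 was counted in the germ-like cells of both macaques, where MAGEA4 was the only germ marker found among the symbols that had no UMI. The share of each listed gene in the macaque PIWIL4 state may still differ from that in the baboon, which was not tested. Of the baboon germ-like cells 20 had no UMI of either list and 13 a tie, and of the 681 macaque ones 259 and 40, so these are in neither state. Macaque cells with no UMI of either list, at a median of 832 UMIs, held RET at 27.3 CPM (8 UMIs) and GFRA2 at 40.9 CPM (12 UMIs). GFRA1 stood at 30.4 and 47.2 CPM in NANOS3-state cells of baboons 1 and 2 and at 22.4 and 16.8 CPM in their PIWIL4-state cells. In the macaques GFRA1 stood at 5.36 and 11.8 CPM in the NANOS3 state and at 2.41 and 4.19 CPM in the PIWIL4 state, with 1 to 4 UMIs in each. The NANOS3-state value was the higher in all 4 animals, though the counting intervals overlapped in every animal. They also overlapped over both baboons together, at 39.8 CPM (23.6 to 62.9) in the NANOS3 state and 19.2 CPM (13.3 to 26.8) in the PIWIL4 state. The NANOS3-state values of baboons 1 and 2 rest on 6 and 12 GFRA1 UMIs. GFRA4 stood at 20.3 and 7.86 CPM in the NANOS3 state and at 25.1 and 25.7 CPM in the PIWIL4 state of the baboons, and RET at 15.2 and 11.8 CPM and at 14.5 and 7.90 CPM. For macaque RET the values were 37.5 and 7.89 CPM in the NANOS3 state and 21.6 and 8.38 CPM in the PIWIL4 state. GFRA3 stood at 39.0 CPM in the NANOS3 state and 39.7 CPM in the PIWIL4 state over both macaques. PIWIL4-state cells were deeper than NANOS3-state cells in the baboon (medians of 10254 and 5483 UMIs), and no test of state was made.

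Genes whose level followed a family gene most closely were sought over 24 sums of library and class in the baboon and 23 in the macaque, which share libraries and depth. For baboon GFRA1 these were NRXN3 (Pearson r 0.956 of log2(CPM + 1)), CHRDL1 (0.926), LOC103884392 (0.904), GXYLT2 (0.902) and MYF6 (0.902). GXYLT2 also ranked first for macaque GFRA1, at 0.833. For baboon GFRA4 they were ZCCHC4 (0.925), WDR12 (0.897), UPK3A (0.879), RIC3 (0.864) and SHROOM3 (0.864), with NRTN at 0.693. For macaque RET they were led by NKX6-2 (0.981), PGA4 (0.974) and FABP6 (0.965), with GFRA2 at 0.741 and GFRA3 at 0.624. Baboon RET and macaque GFRA4 had fewer than 50 UMIs and were left out.

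Around the receptors, 68 genes in 5 lists were followed in germ-like against Sertoli-like cells. These genes, unlike the family itself, were not left out of the clustering that made the classes, so their differences describe the classes. Some passed the count filter through their germ-like levels only. Among them were NANOS2 and GRB10 in the baboon, ETV5 in the macaque, and SPRY4 and LHX1 in both species. A test of such genes was possible only because germ-like cells were high, and the counts of calls include them. Of the 42 tested in both species, 12 were called in both, and all 12 in the same direction, 8 higher and 4 lower. Of all 9403 genes tested in both species by symbol, 25% were called in both and 24.7% in both with the same direction. The median log2 difference over all genes was -0.16 in the baboon and -0.04 in the macaque.

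**Figure D5:**
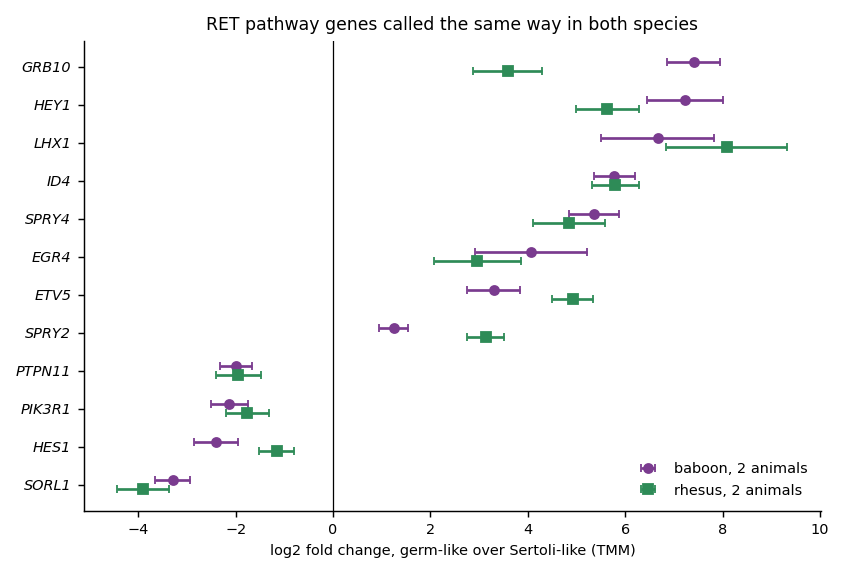
Log2 fold change in germ-like over Sertoli-like cells, with bars of 1 standard error, of the 12 listed pathway genes called in both baboon (circles) and rhesus macaque (squares), 2 animals each. The 8 higher genes lie to the right of zero and the 4 lower ones to the left in both species; macaque LHX1 had no Sertoli-like UMI, and its plotted value depends on the prior count.

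Genes that respond to GDNF or keep stem cells in mouse spermatogonia formed the list with the most calls. In the baboon, 9 of 14 tested were higher and 2 lower, with a median of 3.68, beside the 20.2% and 18.5% of all genes. In the macaque 6 of 9 were higher and 0 lower, with a median of 4.79, beside 18.9% and 15.9% of all genes. ETV5, a transcription factor induced by GDNF in mouse spermatogonia, stood at 75.5 and 40.2 CPM in baboon germ-like cells against 5.17 and 2.40 CPM in Sertoli-like cells, and at 49.9 and 76.5 CPM against 1.65 and 1.81 CPM in the macaques. Its log2 differences were 3.30 ± 0.55 (adjusted p 0.00556) and 4.92 ± 0.42 (adjusted p 0.000526). ID4, an inhibitor of basic helix-loop-helix factors and a stem cell marker in the mouse, stood at 532 and 275 CPM against 4.74 and 4.96 CPM in the baboons and at 367 and 319 CPM against 6.46 and 3.76 CPM in the macaques. ID4 was higher by 5.78 ± 0.42 (adjusted p 0.000663) and 5.80 ± 0.48 (adjusted p 0.000491). EGR4, an immediate-early type zinc finger factor that also belongs to the PIWIL4-state list, was higher by 4.06 ± 1.15 (adjusted p 0.0335) and 2.96 ± 0.89 (adjusted p 0.034). The homeobox gene LHX1 counted 12 and 8 germ-like UMIs against 3 and 0 Sertoli-like UMIs in the baboons (log2 6.67 ± 1.16, adjusted p 0.00642) and 8 and 8 against 0 and 0 in the macaques (adjusted p 0.00329). NANOS2, a translational repressor of stem cell spermatogonia, was higher in the baboon (8.71 ± 0.68, adjusted p 0.000847, 81.4 and 33.4 CPM against 0.101 and 0.064 CPM) and had 0 UMIs in both macaque classes. CXCR4, a chemokine receptor, was the reverse case, with 0 UMIs in both baboon classes and a difference of 4.79 ± 0.63 in the macaque (adjusted p 0.00158). Whether the annotated 3′ ends of NANOS2 in the macaque and CXCR4 in the baboon allow 3′ counting was not tested. ETV4, a relative of ETV5, was higher in the macaque (5.32 ± 1.04, adjusted p 0.0061), and CCND2, a D-type cyclin, was lower in the baboon (-1.85 ± 0.48, adjusted p 0.0246).

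Adaptors and effectors that act on the RET signal gave 3 calls higher and 5 lower of 19 tested in the baboon (median -0.48), and 1 higher and 2 lower of 17 in the macaque (median 0.54). Of all genes tested, 20.2% were called higher and 18.5% lower in the baboon, and 18.9% and 15.9% in the macaque. GRB10, an adaptor that binds RET and other receptor kinases, was higher by 7.40 ± 0.55 in the baboon (adjusted p 0.000729) and 3.58 ± 0.71 in the macaque (adjusted p 0.00626). It stood at 37.7 and 33.4 CPM in baboon germ-like cells against 0.168 and 0.096 CPM in Sertoli-like cells. PTPN11, the SHP2 phosphatase of the RAS branch, was lower, with log2 differences of -2.0 ± 0.33 (adjusted p 0.00546) and -1.94 ± 0.47 (adjusted p 0.0142). PIK3R1, the regulatory subunit of phosphoinositide 3-kinase, was lower as well, with -2.13 ± 0.39 (adjusted p 0.00737) and -1.76 ± 0.44 (adjusted p 0.0162). The docking protein GAB1 was lower in the baboon (-1.44 ± 0.34, adjusted p 0.0181), and its macaque value was 0.70 ± 0.58 (adjusted p 0.377).

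Of the genes that restrain or turn over the receptors, 4 were higher and 1 lower of 10 tested in the baboon (median 0.25) and 3 higher and 0 lower of 10 in the macaque (median 1.17). Beside this list, 20.2% of all genes tested were higher and 18.5% lower in the baboon, and 18.9% and 15.9% in the macaque. The Sprouty genes, feedback inhibitors of receptor kinase signaling, led this list. SPRY4 stood at 29.8 and 22.0 CPM in baboon germ-like cells against 0.403 and 0.416 CPM, and at 9.84 and 14.6 CPM in the macaques against 0.253 and 0.418 CPM. SPRY4 was higher by 5.36 ± 0.52 (adjusted p 0.00153) and 4.84 ± 0.75 (adjusted p 0.00253), and SPRY2 by 1.25 ± 0.30 (adjusted p 0.0195) and 3.13 ± 0.37 (adjusted p 0.00122). SPRY1 was higher in the macaque (2.58 ± 0.66, adjusted p 0.0183), with a baboon value of 0.29 ± 0.35 (adjusted p 0.548). LRIG1, a membrane protein that binds RET and damps it, was higher in the baboon (4.09 ± 0.33, adjusted p 0.000901, 90.4 and 66.7 CPM against 3.09 and 2.98 CPM). The ubiquitin ligase gene CBLC was lower in the baboon (-2.30 ± 0.34, adjusted p 0.0039).

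Among other binding proteins and sorting receptors, 2 were higher and 1 lower of 6 tested in the baboon (median -0.04), and 0 higher and 1 lower of 3 in the macaque (median -1.46). SORL1, a sorting receptor that binds GDNF, was the lower one in both: 22.8 and 37.9 CPM in baboon germ-like cells against 215 and 187 CPM in Sertoli-like cells, and 3.28 and 12.8 CPM against 59.1 and 114 CPM in the macaques. The differences were -3.30 ± 0.37 (adjusted p 0.00209) and -3.90 ± 0.53 (adjusted p 0.0017). SORCS1, of the same receptor family, was higher in the baboon (6.45 ± 0.80, adjusted p 0.00259). Of the genes known to govern GDNF in Sertoli and peritubular cells, 2 were higher and 1 lower of 7 tested in the baboon (median 0.34), and 1 higher and 2 lower of 5 in the macaque (median 0.64). Beside this list and the one before it, 20.2% of all genes tested were higher and 18.5% lower in the baboon, and 18.9% and 15.9% in the macaque. HES1, a Notch target, was lower in germ-like cells, at -2.41 ± 0.45 (adjusted p 0.0083) and -1.16 ± 0.35 (adjusted p 0.0363). HEY1, another Notch target, was higher in germ-like cells by 7.23 ± 0.78 (adjusted p 0.00197) and 5.63 ± 0.65 (adjusted p 0.0011). FSHR, the receptor of follicle-stimulating hormone, was lower in the macaque (-3.70 ± 0.61) and is 1 of the 2 lower calls there. FSHR is on the marker list that named the Sertoli-like class, so its difference was set in part by the naming.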

How the data were processed

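Droplet libraries of dissociated testis cells (10x Genomics 3′ chemistry) were analysed for 3 libraries per species. The deposited values were whole-number UMI counts per gene and barcode, which the authors made with Cell Ranger 3.1.0 from reads aligned to Panubis1.0 (baboon) and Mmul_10 (rhesus macaque), for all barcodes and without normalization. Seurat 3.2.3 is also named in the submitters' processing notes. The counting of overlapping genes was that of the pipeline, and 3′ UMIs do not allow levels to be compared between genes.

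Cells were called with Python 3.11.15 (NumPy 2.4.6, SciPy 1.17.1) by a UMI cutoff (percentile 99 of the top 5000 barcodes, divided by 10) and, for barcodes with at least 500 UMIs, by a comparison with the free RNA of barcodes ranked 45001 to 90000 in 10000 simulations, with a limit of 0.01 on the adjusted p. Barcodes with under 200 genes were dropped. Each animal was clustered by Leiden (leidenalg 0.10.2, igraph 0.11.9, scikit-learn 1.9.0; 2000 variable genes without the 9 family genes, 30 components, 15 neighbours, resolution 1.0). A cluster was named from a marker list when its score reached 0.3 and 3 or more markers were each found in 5% of its cells or more, and clusters with over 50% marked doublets stayed unnamed, as did those whose 10 leading genes held more markers of another list, or whose median UMIs times 3 were below their animal's median with no marker of their own list among those genes. Doublets were marked and kept. The thresholds of this naming rule were written after the leading genes of the clusters had been seen.

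UMIs were summed per animal and class and tested with edgeR 4.0.16 (R 4.3.3) by the quasi-likelihood test with TMM scaling, its expression filter and Benjamini-Hochberg adjustment over all genes. The standard error is the absolute log2 fold change divided by the square root of F. Classes of 1 animal pair the samples: deviations of germ-like and Sertoli-like sums from the class means correlated at 0.382 in the baboon and 0.276 in the macaque, and the block was run as an alternative. Levels have exact Poisson intervals, shares exact binomial ones and ratios of 2 counts intervals from the binomial share, all at 95% and for counting error only. PCR copies were collapsed by UMI.

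The 9 genes, the pathway lists and the tests were chosen with earlier results of these data known. All 9 genes are named, and of the pathway lists those called in both species in the same direction, and otherwise the 3 with the smallest adjusted p per direction and species. Alternatives were DESeq2 1.42.0, its size factors, library totals, no filter, other cell calling, classes and resolution, and leaving out each library. One gene of the pathway lists is not reported here. The scripts were tested on simulated data.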

Additional observations from a re-analysis of the deposited data

Results flagged for a closer look

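Barcodes outside the called cells, ranked from 45001 to 90000 by UMIs, were used in no comparison, and family genes were counted there above the floor of 3 UMIs. GFRA4 stood at 49.6 CPM in baboon 1A, 22.2 CPM in baboon 1B and 54.1 CPM in baboon 2. NRTN was found in these barcodes of both species, at 13.3 CPM in baboon 1A, 36.1 CPM in baboon 2, 9.81 CPM in rhesus 2A and 4.99 CPM in rhesus 2B. GFRA3 stood at 6.05 CPM in baboon 1A and at 6.05, 4.53 and 2.85 CPM in rhesus 1, 2A and 2B. GDNF was counted at 4.24 CPM in baboon 1A, GFRA2 at 2.42 CPM in baboon 1A and 1.91 CPM in rhesus 1, and GFRA1 at 1.59 CPM in rhesus 1. RET was above the floor in none of the 6 libraries.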

How the results depend on the processing

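With 2 animals per species, calls of single sparse genes are limited by counts, and leaving out baboon 2 or macaque 1 left 1 animal and so a value with no test. No result reversed. Of 308 counts and levels recomputed, 244 stayed within their spread or within 1.5 times and 64 moved. Of 891 values of single family genes, 809 kept their call status or, where there was no test, stayed within the standard error. Another 44 passed the threshold anew, 10 no longer passed it and 28 values with no test moved. A value that kept its call status may still have changed in size. Where the number of genes tested under a setting is not given, its count of family genes called cannot be set against the share of all genes. The causes of these changes were not tested.

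With the animal as a replicate block, calls in the baboon against all others became 5047 of 15759 genes tested in endothelial-like cells (2387 without it). They became 9061 of 17306 in germ-like (6008), 1224 of 15099 in myoid-like (413), 8417 of 17381 in Sertoli-like (3210) and 8174 of 16096 in stroma-like cells (2891). In the macaque they became 1168 of 12129 in macrophage-like (370), 3821 of 12459 in Sertoli-like (1431) and 3195 of 12824 in stroma-like cells (0). The family genes called under the block were 2 in baboon endothelial-like (1 without it), 1 in myoid-like (0), and in the macaque 1 in macrophage-like (0), 2 in Sertoli-like (1) and 2 in stroma-like cells (0). The block also brought GDNF and ARTN under the threshold in baboon germ-like cells against all others (adjusted p 0.00104 and 0.0268), and, beyond the calls given with the results, changed no other family call.

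Libraries taken as samples gave 4118 endothelial-like, 1055 myoid-like, 5219 Sertoli-like and 5486 stroma-like calls in the baboon, and 5689 germ-like, 798 macrophage-like, 4279 Sertoli-like and 3066 stroma-like calls in the macaque, with 2 family genes in myoid-like, 1 in macrophage-like, 2 in macaque Sertoli-like and 3 in macaque stroma-like cells. Without the count filter, calls were 9848 for germ-like against Sertoli-like and 9204 for germ-like against all other baboon cells, 1112 in myoid-like, and 919, 2456 and 895 in macaque macrophage-like, Sertoli-like and stroma-like cells, with 2 family genes each in endothelial-like, myoid-like and macaque Sertoli-like and 1 each in macaque macrophage-like and stroma-like cells. DESeq2 called 965 of 15099 genes in myoid-like cells. In macaque macrophage-like, Sertoli-like and stroma-like cells DESeq2 called 649 of 12129, 2290 of 12459 and 1246 of 12824. The family genes among these calls were 1, 1, 2 and 1. On library totals without TMM, chosen after seeing the data, 559 genes were called in macaque macrophage-like cells (394 higher and 165 lower), 1 family gene in myoid-like and 2 in macaque Sertoli-like cells. That choice moved the median log2 difference between germ-like and Sertoli-like macaque cells by 0.195 and gave 2403 higher and 1319 lower calls there in place of 2158 and 1813.

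Without doublets, 772 genes and 1 family gene were called in myoid-like cells. Classes set cell by cell gave 1855 Sertoli-like calls in the baboon and 655 in the macaque, 1 family gene in myoid-like and 0 in macaque Sertoli-like cells, where a doubled resolution also gave 0. A UMI cutoff alone gave 1449 baboon stroma-like calls and a GFRA1 level of 9.16 CPM there (14.5 as reported). Macaque Sertoli-like NRTN was 22.7 CPM with cell by cell classes (18.7). Thinning to 500 and 2000 UMIs gave GFRA4 shares of 2.21% and 7.62% in Sertoli-like and 0.247% and 1.52% in stroma-like baboon cells (4.04% and 0.543% at 1000). Leaving out 1 library at a time gave 569 to 911 calls in myoid-like cells, 911 of them without baboon 1A, with 0 to 1 family genes, and 0 to 1 family genes in macaque Sertoli-like cells, 0 without rhesus 2B. The shallow germ-like cluster of macaque 1, left out after seeing the data, changed no family call.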

Other observations

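Some UMIs of the family fell in clusters that no marker list named. In baboon 1, a cluster of 551 cells led by TNFRSF12A and MATN2 held 10 GDNF UMIs (7.31 CPM) and 31 GFRA4 UMIs (22.6 CPM). In baboon 2, a cluster of 377 cells, 83% of them marked as doublets, held 65 NRTN UMIs (19.4 CPM) beside its 156 GFRA4 UMIs. In macaque 2, a cluster of 316 cells, 87% of them marked as doublets, held 20 NRTN UMIs (22.5 CPM).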
